A study of Mus musculus with 3 samples.

Results

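The genes described here are those of the constitutive proteasome, taken by their mouse symbols as Psma1 to Psma7, Psmb1 to Psmb7, Psmc1 to Psmc6 and every Psmd gene. Most encode subunits, while Psmd5, Psmd9 and Psmd10 encode assembly chaperones that leave the finished particle. The interferon-inducible subunits Psmb8, Psmb9 and Psmb10 and the Psme activators were left out of the set. Of 19057 genes named on the arrays, 34 were members, and a gene was represented by its brightest probe. NIH/3T3, an established line of mouse fibroblasts, was grown in 3 groups. The recovery group was exposed to 1 uM 5aza-dC, renewed each day for 3 days, and then kept for 14 days without drug. The 5aza-dC group had the 3 days of exposure alone, and the mock group was mock treated. The labels give no time in culture for mock. In comparisons with recovery, past exposure and time in culture can therefore not be told apart. 5aza-dC (decitabine) is a cytidine analog that enters DNA and traps DNA methyltransferases, so that methylation is lost as cells divide. All 3 groups came from 1 line and 1 growth medium, and no second line was measured.

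The proteasome is the protease that degrades most ubiquitin-tagged proteins of a cell. Its core particle is a barrel of alpha rings, built from Psma products, around beta rings, built from Psmb products, of which Psmb5, Psmb6 and Psmb7 carry the active sites. A regulatory particle sits on the barrel: its base holds the Psmc ATPases, which unfold substrates, with the scaffolds Psmd1 and Psmd2 and the ubiquitin receptor Psmd4, and its lid holds further Psmd proteins, among them the deubiquitinase Psmd14. After interferon, cells swap the active-site subunits for Psmb8, Psmb9 and Psmb10, which form the immunoproteasome, and when proteasomes fail, the transcription factor Nfe2l1 raises the constitutive genes together.

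Because the drug acts on methylation of CpG dinucleotides, the 250 bases before the start of a constitutive and an induced gene for corresponding active sites are shown first, with those of Psmd14, the member with the largest difference between groups. The sequences are from RefSeq, build GRCm38.p6, 5′ to 3′ on the strand of the gene, and capitals mark CpG dinucleotides. Psmb5 lies on the minus strand at chr14:54617996-54618245 and held 15 CpG. Psmb8 lies on the plus strand at chr17:34197945-34198194 and held 10 CpG, and Psmd14 on the plus strand at chr2:61711444-61711693 held 18 CpG.
Psmb5: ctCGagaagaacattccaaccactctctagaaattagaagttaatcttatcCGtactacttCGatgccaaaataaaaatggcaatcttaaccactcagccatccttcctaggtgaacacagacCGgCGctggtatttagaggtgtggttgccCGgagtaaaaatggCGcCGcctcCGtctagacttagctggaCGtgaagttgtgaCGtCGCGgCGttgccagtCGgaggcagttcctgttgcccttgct
Psmb8: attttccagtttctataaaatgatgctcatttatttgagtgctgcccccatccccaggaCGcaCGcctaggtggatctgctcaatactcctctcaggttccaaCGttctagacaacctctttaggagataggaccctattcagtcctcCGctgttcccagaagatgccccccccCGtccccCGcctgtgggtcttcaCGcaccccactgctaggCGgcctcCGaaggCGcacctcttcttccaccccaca
Psmd14: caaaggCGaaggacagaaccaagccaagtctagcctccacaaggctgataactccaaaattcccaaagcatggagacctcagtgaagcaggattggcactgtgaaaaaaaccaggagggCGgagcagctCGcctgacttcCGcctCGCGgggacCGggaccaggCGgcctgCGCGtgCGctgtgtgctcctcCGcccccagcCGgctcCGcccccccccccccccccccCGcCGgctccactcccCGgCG

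Over a window of 300 bases (250 before to 50 after the start), 28 of the 34 members had a promoter sequence, with a median of 19.5 CpG and a range of 3 to 41. The 5 induced counterparts (Psmb8, Psmb9, Psmb10, Psme1 and Psme2) had a median of 11 CpG. The 7308 detected genes with a sequence had a median of 21 CpG, and all 27025 genes of the table had a median of 7. The members' median was close to that of detected genes in general. No methylation was measured in these samples.

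The letters TGACNNNGC, the core of the antioxidant response element to which Nfe2l1 and Nfe2l2 bind with small Maf proteins, were searched on both strands. They were found in 5 of 28 members' windows (17.9%), against 14.3% of detected genes and 12.5% of all genes, a share near the background. The matches, in capitals with up to 6 bases on each side, were on chromosomes 14 (Psmb5 and Psmc6), 11 (Psmb6 and Psmd12) and 5 (Psmd9). In Psmc6 and Psmd12 the match was on the opposite strand, so the capitals show its reverse complement.
Psmb5: aagttgTGACGTCGCggcgtt
Psmb6: agagagTGACGGAGC
Psmc6: ccagtaGCTAAGTCAggcatt
Psmd9: agccggTGACCCCGCccactt
Psmd12: tctGCTGTGTCAcatttg

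Among other short motifs searched in the same way, CCGGAA, a core bound by Ets factors, occurred in 50% of the members' windows, 29.9% of detected genes and 15.2% of all genes. GGGCGG, the GC box, occurred in 64.3% of members and 66.6% of detected genes, and CCAAT in 39.3% of members and 39.2% of detected genes. A match of letters describes the window and no binding was measured.

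Each deposited column is the mean of 2 arrays, which were separated as described in the processing section. Levels are log2 values after background correction and quantile normalization, and differences are between group means of 2 arrays with the standard error (SE) from limma. A gene counted as detected at a detection p-value below 0.01 in at least 1 group, which left 8982 genes. A gene passed the test at a Benjamini-Hochberg adjusted limma p below 0.05 over all of them. Between 14070 and 15105 of 45281 probes were detected per group, and pairs of arrays of a group correlated with r of at least 0.995 over detected genes. The study's description states duplicate independent experiments, but the sources used here do not say that these are the 2 arrays, so p-values measure only the spread between arrays. All 10 fibroblast markers were detected in all 3 groups. Their summed linear levels were 23318 to 23363 in recovery, 16226 to 16490 in 5aza-dC and 18849 to 19743 in mock. In 5aza-dC relative to mock 5 of them fell (Col1a1, Col1a2, Fn1, S100a4 and Sparc) and Pdgfra rose, against 27% and 30.1% of all detected genes. In recovery relative to mock 4 rose and 1 fell, against 22.1% and 18.4%. Markers of other cells appeared with the drug: 3, 5 and 2 of 7 epithelial genes were detected in recovery, 5aza-dC and mock, with summed levels on the linear scale of 389 to 396, 2457 to 2473 and 215 on the arrays, while Cdh1 and Epcam were undetected in every group. Of 6 blood markers 1 (Laptm5) was detected, in 5aza-dC alone, and Ptprc was not. Of 4 germ cell markers 1, 3 and 0 were detected in recovery, 5aza-dC and mock, with summed linear levels of 284 to 345, 837 to 849 and 85.8 to 91.6. Of 4 endothelial markers 1 (Pecam1) was detected, near the threshold, with detection p-values of 0.00908 in 5aza-dC, 0.015 in recovery and 0.374 in mock. Pecam1 rose relative to mock by 0.45 ± 0.11 in 5aza-dC and 0.55 ± 0.11 in recovery (limma adjusted p = 0.0103 and 0.008). The 3 markers of dividing cells summed to 4718 to 4818 in recovery, 4980 to 5188 in 5aza-dC and 3922 to 4081 in mock, and Top2a and Kif2c rose in both exposed groups relative to mock. None of 5 loading controls passed in either comparison with mock. In 5aza-dC minus mock they lay between −0.18 and −0.05, with a median of −0.13. Tbp, 1 of the 5, rose by 0.24 ± 0.07 in recovery relative to 5aza-dC (limma adjusted p = 0.0296). The part of these genes in the results below was not tested, and in bulk RNA a change in the make-up of the culture and a change in RNA per cell cannot be told apart.

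Of the 34 members, 28 were detected (82.4%), each in all 3 groups, against 47.1% of all 19057 genes. The 6 undetected members were Psma1, Psma3 and Psma6 of the alpha ring, the ATPase Psmc6, and Psmd3 and Psmd6 of the lid. All 9 of their probes stayed at background, the lowest detection p-value being 0.0304 for Psmd6 in mock. Their products are obligate parts of the complex, and whether the probes or the transcripts account for the reading was not tested. A further 10 probes of 9 detected members were also undetected. Averaged over all 6 arrays, levels of the 28 detected members ran from 6.56 to 13.62 on the log2 scale. Their median was 11.83, against 7.48 for all detected genes, and 25 of the 28 lay above the median gene. The members' 2 arrays differed by a median of 0.05 in recovery, 0.06 in 5aza-dC and 0.08 in mock. Over all detected genes these medians were 0.08, 0.08 and 0.13. The widest gap of a member was that of Psmd14 in mock, 0.59.

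On their brightest probes, most members lay close to their mock level after exposure to 5aza-dC. The other detected probes of 10 members mostly gave lower values, as given below. Of 28 detected members, 1 rose and 6 fell, and 21 did not pass the test. The share that passed was 25%, against 57.1% of all detected genes (30.1% higher and 27% lower). The ubiquitin receptor gene Psmd4 rose, and the genes that fell were Psmd14, Psmd11, Psmd12 and Psmd7 of the lid, Psma5 of the alpha ring and the ATPase gene Psmc1. No member reached a 2-fold difference, which 9.4% of detected genes did. The members' median difference was −0.01 and the median size of difference, in either direction, was 0.13, while all detected genes had a median of 0.01 and a median size of 0.33. The 2 groups' arrays did not overlap for 18 of 28 members (64.3%), against 79% of all genes. Leaving out 1 array changed these counts, and the members' median then ran from −0.042 to −0.0073. Such a fit has 1 array left in a group and fewer degrees of freedom. A call lost in it, here and below, does not by itself show that the call rested on that array.

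**Figure D1:**
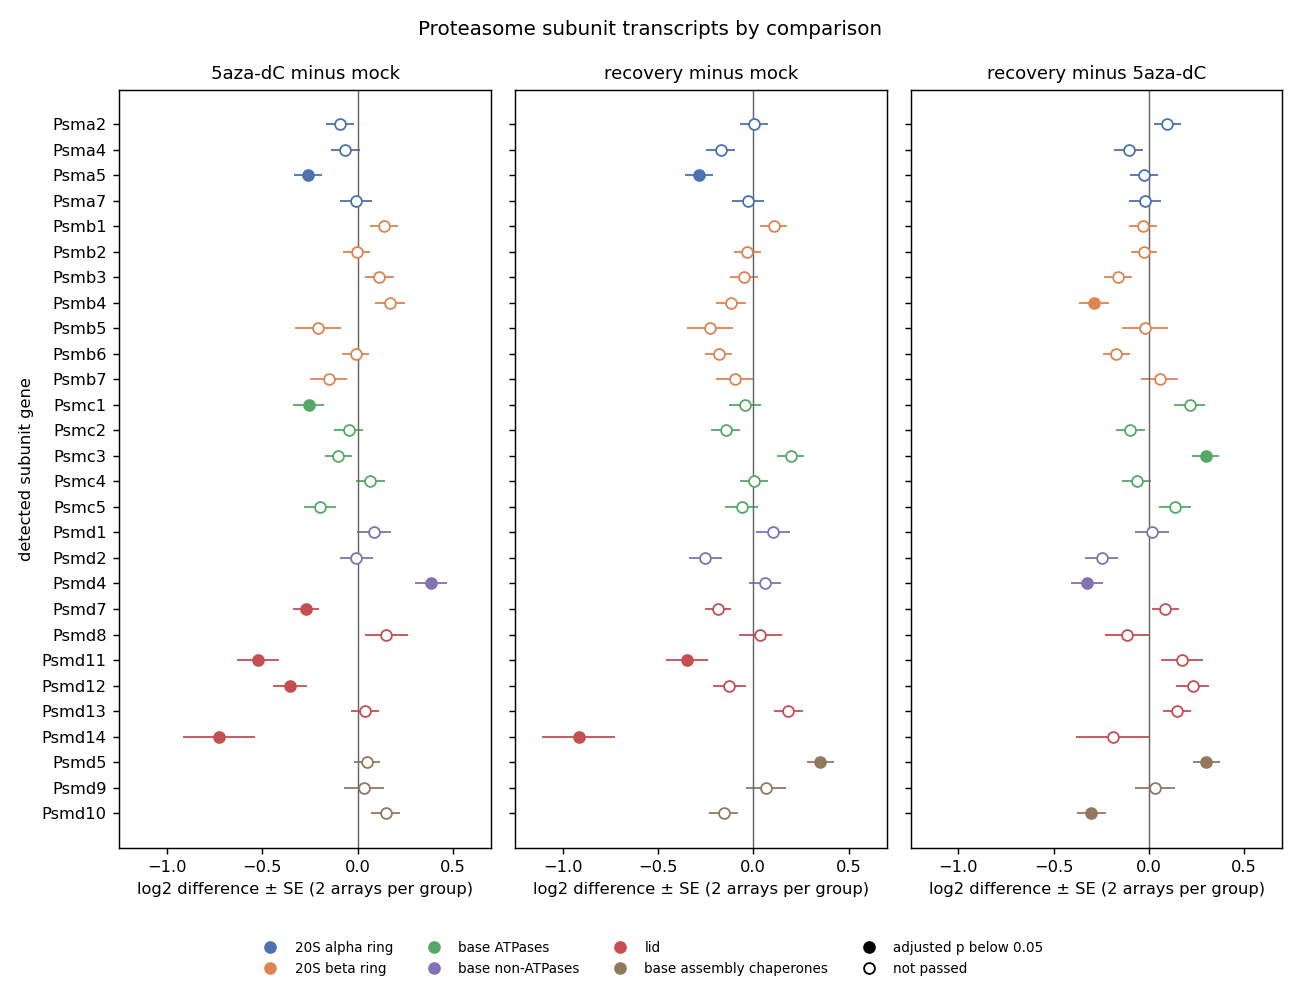
Log2 difference (horizontal axis, with SE bars, 2 arrays per group) of the 28 detected members, assembly chaperones included (vertical axis, by part of the complex), in 3 comparisons. Filled points passed the limma test: 7 for 5aza-dC minus mock, 4 for recovery minus mock and 5 for recovery minus 5aza-dC, and the farthest from 0 is Psmd14.

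The 95% intervals of all 28 members, passed or not, were set against a 1.5-fold change. They measure only the spread between arrays, on the brightest probes and under quantile normalization. In 5aza-dC minus mock, 25 of 28 members had an interval lying wholly within a 1.5-fold change either way, against 50.2% of all detected genes. The exceptions were Psmd11, Psmd14 and Psmd4. In recovery minus mock 26 members did, against 64.4% of genes, with Psmd11 and Psmd14 outside. In recovery minus 5aza-dC 27 did, against 62% of genes, with Psmd14 outside. Most members were brighter than the median detected gene, and their arrays lay closer together. The part of this in the members' narrower intervals was not tested.

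**Figure D2:**
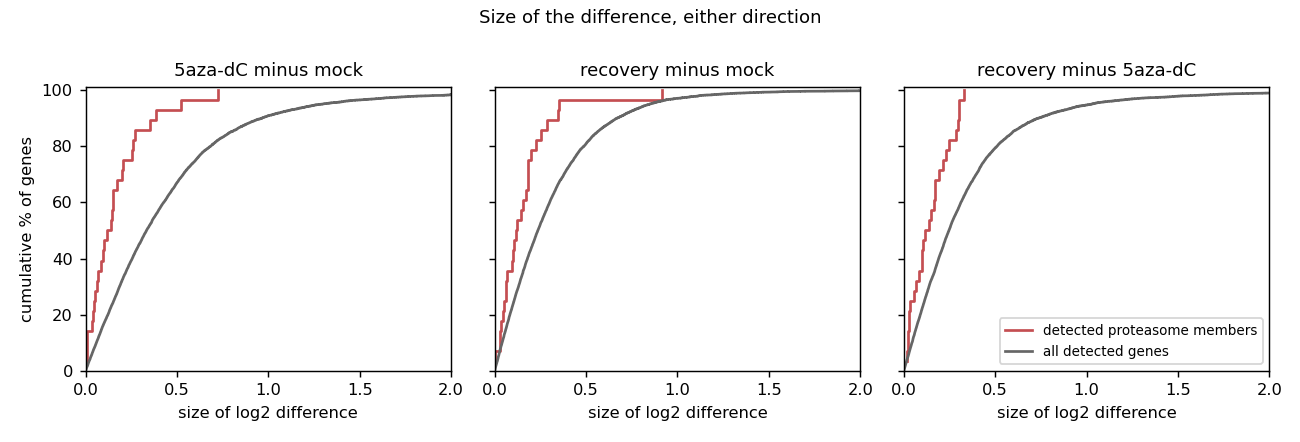
Cumulative percent of genes (vertical axis) by the size of the log2 difference in either direction (horizontal axis) for the 28 detected members and all 8982 detected genes in 3 comparisons. The members' curve reaches 100% at 0.73, 0.92 and 0.33 from left to right, and their median sizes are 0.13, 0.12 and 0.13.

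The 3 active-site subunits did not pass in any comparison on their brightest probes. A second probe of Psmb6 passed in recovery relative to mock, at −0.33 ± 0.08 (limma adjusted p = 0.0195, in a fit of all detected probes). Psmb5, the chymotrypsin-like subunit, had levels of 7.80 and 7.92 in recovery, 7.84 and 7.92 in 5aza-dC, and 8.25 and 7.92 in mock. The 3 groups met at 7.92, and only 1 mock array stood higher. The difference was −0.21 ± 0.12 for 5aza-dC minus mock, with a 95% interval of −0.49 to 0.08. Psmb6, the caspase-like subunit, had levels of 12.12 and 12.15 in recovery, 12.28 and 12.34 in 5aza-dC, and 12.31 and 12.32 in mock. Its recovery arrays lay below both other groups, but the difference of −0.18 ± 0.07 from mock did not pass (limma with Benjamini-Hochberg adjustment, adjusted p = 0.0821). Psmb7, the trypsin-like subunit, had levels of 12.52 and 12.60 in recovery, 12.54 and 12.47 in 5aza-dC, and 12.54 and 12.77 in mock, and the groups overlapped. Its intervals ran from −0.39 to 0.08 for 5aza-dC minus mock and from −0.33 to 0.14 for recovery minus mock.

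Of the other beta-ring genes none passed against mock. Psmb4 had the highest difference of the ring after exposure, 0.17 ± 0.08 (adjusted p = 0.108 by limma with Benjamini-Hochberg adjustment). Its levels were 13.47 and 13.50 in recovery, 13.77 and 13.78 in 5aza-dC, and 13.53 and 13.68 in mock. It stood highest in 5aza-dC, and it fell by 0.29 ± 0.08 in recovery relative to 5aza-dC (limma, Benjamini-Hochberg adjusted p = 0.027), a call lost without any 1 array of either of those groups. In the alpha ring 1 of 4 detected genes passed. Psma5 had levels of 13.37 and 13.40 in recovery, 13.43 and 13.39 in 5aza-dC, and 13.62 and 13.71 in mock. Both drug-exposed groups lay below mock, with differences of −0.28 ± 0.07 for recovery (limma adjusted p = 0.0228) and −0.26 ± 0.07 for 5aza-dC (limma adjusted p = 0.0222). Each of these 2 calls was lost without array 2 of mock, and without either array of 5aza-dC, and the recovery call also without either array of recovery.

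The lid held 4 of the 6 members that fell in 5aza-dC. Its 6 detected genes had a median difference of −0.31 from mock, against 0.01 over all detected genes, of which 27% were called lower. Without array 1 of 5aza-dC 3 of the 4 calls were lost, and Psmd11 alone remained. Psmd8 (0.15 ± 0.11) and Psmd13 (0.04 ± 0.07) did not pass. Psmd14, which cuts ubiquitin chains from substrates at the entrance to the base, had levels of 6.58 and 6.54 in recovery, 6.61 and 6.88 in 5aza-dC, and 7.18 and 7.77 in mock. Neither exposed group overlapped mock, and the mock arrays were the farthest apart. Psmd14 fell by 0.73 ± 0.19 in 5aza-dC (limma, Benjamini-Hochberg adjusted p = 0.0159) and by 0.92 ± 0.19 in recovery (adjusted p = 0.0105). The 95% intervals were −1.18 to −0.27 and −1.37 to −0.46. The recovery call was kept under all 15 alternatives with a test, with adjusted p of at most 0.0458, whereas the 5aza-dC call was lost without array 1 of 5aza-dC.

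Psmd11, a lid scaffold, had levels of 8.00 and 7.89 in recovery, 7.73 and 7.82 in 5aza-dC, and 8.15 and 8.43 in mock. No group overlapped another. It fell by 0.52 ± 0.11 in 5aza-dC (limma, Benjamini-Hochberg adjusted p = 0.00657) and by 0.35 ± 0.11 in recovery (adjusted p = 0.0429). The recovery call was lost in 9 of 15 alternatives, among them the omission of array 2 of mock, of either recovery array or of either 5aza-dC array. Psmd12, a neighbouring scaffold, had levels of 11.36 and 11.51 in recovery, 11.15 and 11.26 in 5aza-dC, and 11.52 and 11.59 in mock. Its 5aza-dC arrays were lowest, and it fell by 0.35 ± 0.09 in 5aza-dC (limma adjusted p = 0.0133), a call lost without array 1 of 5aza-dC. Psmd7, the partner of Psmd14, fell by 0.27 ± 0.07 in 5aza-dC (limma adjusted p = 0.0149), a call lost without either array of 5aza-dC, with levels of 11.75 and 11.72 in recovery, 11.63 and 11.67 in 5aza-dC, and 11.93 and 11.91 in mock.

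**Figure D3:**
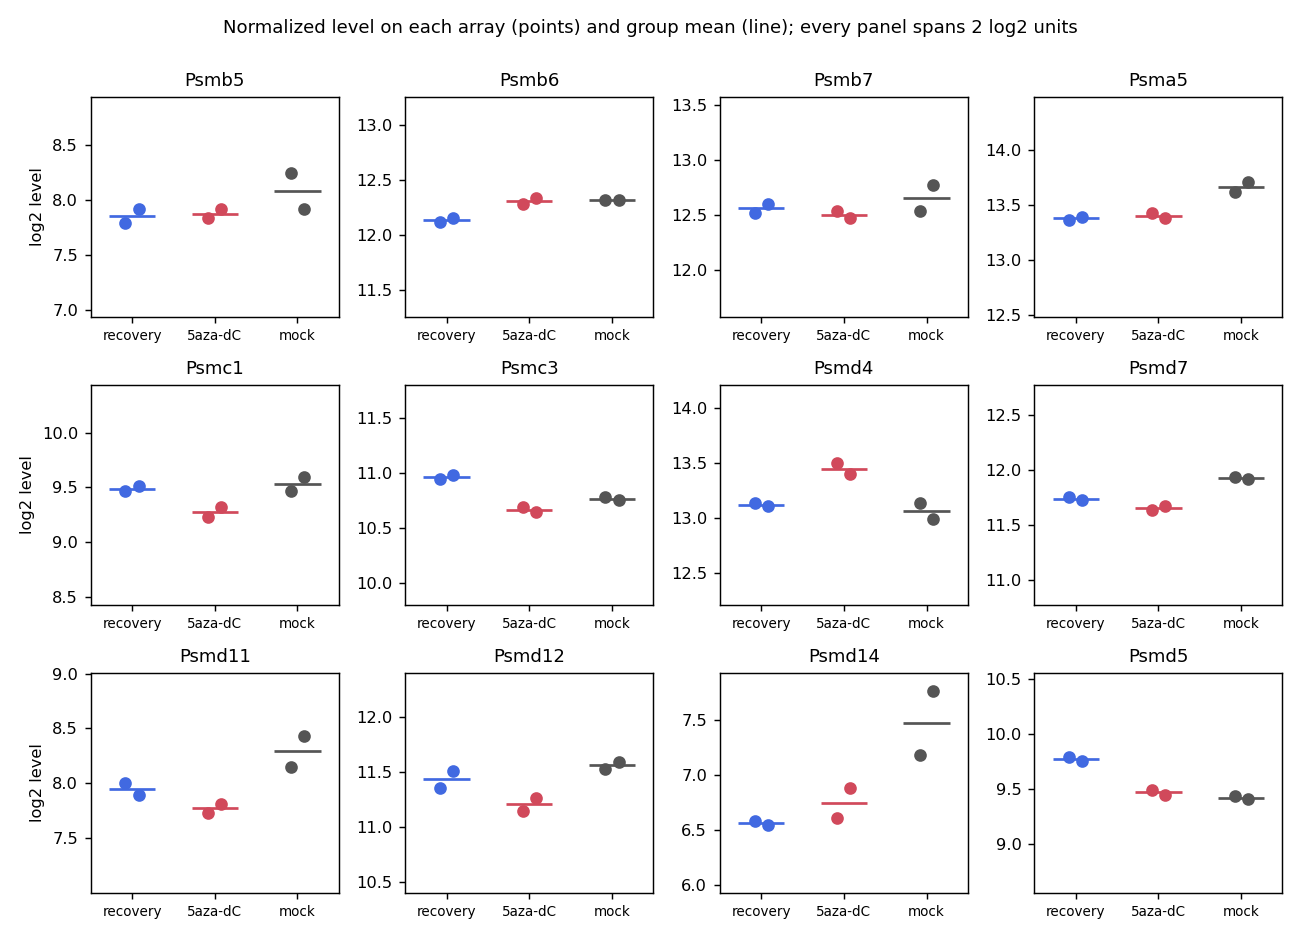
Normalized log2 level (vertical axis) on each of the 2 arrays of recovery, 5aza-dC and mock (horizontal axis) for 12 members, with a line at the group mean. Psmd14 and Psmd11 lie highest in mock, Psmd4 highest in 5aza-dC and Psmd5 highest in recovery, while the active-site genes Psmb5, Psmb6 and Psmb7 stay within 0.5 of their own mock levels.

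In the base, 1 member rose and 1 fell after exposure. Psmd4, which binds ubiquitin chains, had levels of 13.13 and 13.10 in recovery, 13.50 and 13.40 in 5aza-dC, and 13.13 and 12.98 in mock. The 5aza-dC arrays stood above all others, and the recovery and mock arrays overlapped. It rose by 0.39 ± 0.08 in 5aza-dC (limma, Benjamini-Hochberg adjusted p = 0.00747) and fell by 0.33 ± 0.08 in recovery relative to 5aza-dC (adjusted p = 0.0201). The rise was lost without array 1 of 5aza-dC, and the fall without either array of 5aza-dC or of recovery. Psmc1, an ATPase of the base, had levels of 9.46 and 9.51 in recovery, 9.23 and 9.32 in 5aza-dC, and 9.47 and 9.60 in mock. It was lowest in 5aza-dC and fell there by 0.26 ± 0.08 (limma adjusted p = 0.0331), a call lost in 7 of 15 alternatives, including the omission of any 1 array other than array 1 of mock.

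The scaffolds of the base did not pass. Psmd1 had levels of 13.08 and 12.90 in recovery, 12.93 and 13.01 in 5aza-dC, and 12.85 and 12.92 in mock, which overlapped between recovery and each other group. Psmd2 had levels of 7.02 and 7.05 in recovery, 7.35 and 7.22 in 5aza-dC, and 7.36 and 7.22 in mock. Its recovery arrays were below both other groups, by 0.25 ± 0.09 relative to mock (limma adjusted p = 0.0559). The ATPase genes Psmc2, Psmc4 and Psmc5 did not pass in any comparison on their brightest probes, whereas a second probe of Psmc5 did, as given below. In 5aza-dC minus mock they gave −0.05 ± 0.08, 0.07 ± 0.07 and −0.20 ± 0.08, and in recovery minus mock −0.14 ± 0.08, 0.00 ± 0.07 and −0.06 ± 0.08.

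After 14 days without drug, 24 of 28 members did not pass the test on their brightest probes against mock, whose time in culture the labels do not give. Psmd5 rose and Psmd14, Psmd11 and Psma5 fell, which is 14.3% of the members, against 40.5% of all detected genes (22.1% higher and 18.4% lower; 1985 and 1656 genes, or 68 and 289 with arrays scaled to the median of all probes). Psmd14 was the only member past 2-fold, against 3.28% of genes, with −1.04 between the deposited columns, and it did not reach that size without background correction or with a larger offset. The members' median difference was −0.05, against 0.03 over all genes. Arrays did not overlap for 16 of 28 members, against 70.9% of genes. Without array 1 of recovery 0 members rose and 1 fell, and 1 fell without array 2 of recovery or without either array of 5aza-dC.

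The genes Psmd5, Psmd9 and Psmd10 encode chaperones that help to assemble the base and leave the finished particle. None of the 3 passed after exposure. Psmd5 had levels of 9.79 and 9.76 in recovery, 9.50 and 9.45 in 5aza-dC, and 9.44 and 9.41 in mock. The recovery arrays stood apart from both other groups, and Psmd5 rose by 0.35 ± 0.07 relative to mock (limma, Benjamini-Hochberg adjusted p = 0.00914) and by 0.30 ± 0.07 relative to 5aza-dC (adjusted p = 0.0143). The first call was lost without array 1 of recovery, and the second without either array of recovery or of 5aza-dC. Psmd9 differed by at most 0.07 in any comparison. Psmd10 had levels of 10.42 and 10.37 in recovery, 10.64 and 10.75 in 5aza-dC, and 10.53 and 10.57 in mock, and did not pass against mock on its brightest probe.

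Recovery and 5aza-dC differed in 5 of 28 members (17.9%), against 42.6% of detected genes (21.6% higher and 21% lower; 1942 and 1882 genes, or 29 and 495 under that scaling). Psmc3 and Psmd5 rose, and Psmd4, Psmd10 and Psmb4 fell. Psmc3, an ATPase of the base, had levels of 10.95 and 10.98 in recovery, 10.69 and 10.64 in 5aza-dC, and 10.78 and 10.76 in mock. Its recovery arrays were highest, and it rose by 0.30 ± 0.07 relative to 5aza-dC (limma, Benjamini-Hochberg adjusted p = 0.015), while 0.20 ± 0.07 relative to mock did not pass (adjusted p = 0.064). Psmd10 fell by 0.30 ± 0.08 relative to 5aza-dC (limma adjusted p = 0.0196). No member reached 2-fold, against 5.28% of genes, the median was −0.02, against 0.02 over all genes, and arrays did not overlap for 19 members, against 77.3% of genes. Omitting any 1 array of recovery or of 5aza-dC left 0 members past the test.

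The 3 comparisons share their arrays, so they are not independent of each other. Over all of them 17 members (60.7%) passed in none, against 28.1% of detected genes, 6 passed in 1 and 5 in 2. None passed in all 3, which 12.8% of genes did. By their brightest probes, the 17 were Psma2, Psma4, Psma7, Psmb1, Psmb2, Psmb3, Psmb5, Psmb6, Psmb7, Psmc2, Psmc4, Psmc5, Psmd1, Psmd2, Psmd8, Psmd9 and Psmd13. Of these, Psmb6 and Psmc5 each had a second probe that passed against mock. On their brightest probes, Psma5, Psmd11 and Psmd14 fell in both exposed groups relative to mock, and 1 dimmer probe of Psmd7 did so too. Among the 17, Psma2 lay between 13.30 and 13.45 on all 6 arrays, Psmb2 between 12.84 and 12.91 and Psmc4 between 11.60 and 11.71. The steadiest of these, Psmb2, which encodes a beta-ring subunit without an active site, gave −0.01 ± 0.07 in 5aza-dC minus mock and −0.03 ± 0.07 in recovery minus mock. Psmb1 and Psmb3, also of the beta ring and without active sites, gave 0.14 ± 0.07 and 0.12 ± 0.07 in 5aza-dC minus mock, and 0.11 ± 0.07 and −0.05 ± 0.07 in recovery minus mock. Psma4 and Psma7 of the alpha ring gave −0.06 ± 0.08 and −0.01 ± 0.08 in 5aza-dC minus mock, and −0.17 ± 0.08 and −0.03 ± 0.08 in recovery minus mock.

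For 10 members, 2 or more probes were detected, and their differences were compared in a fit of all detected probes. In 5aza-dC minus mock, every other detected probe of these genes gave a lower value than the brightest, except 1 of Psmd1 (0.0852 against 0.0849). The second probe of Psmd14 had levels of 4.67 and 4.83 in recovery, 5.14 and 5.01 in 5aza-dC, and 5.77 and 6.40 in mock. Like the brightest probe it was highest in mock. It fell by 1.01 ± 0.20 in 5aza-dC (limma, Benjamini-Hochberg adjusted p = 0.00521), and in recovery, where it was not well above background, it was at least 2.47-fold lower than in mock (adjusted p = 0.00395). This bound sets the mean of mock against the higher of the probe's own signal and the lowest signal of a detected probe on each recovery array. The 3 probes of Psmd7 gave −0.27, −0.36 and −0.61 in 5aza-dC minus mock, of which the first and the last passed. In recovery minus mock they gave −0.18, −0.32 and −0.44 ± 0.09, of which only the last passed (limma adjusted p = 0.0131). All 4 probes of Psmb7 lay between −0.15 and −0.25 in 5aza-dC minus mock without passing.

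Other members depended on the probe. In 5aza-dC minus mock, the brightest probe of Psmd10 gave 0.15 and the others −0.11 and −0.34, and none passed. In recovery minus mock, the other probes of Psmd10 fell, by 0.36 ± 0.08 and 0.74 ± 0.13 (limma, adjusted p = 0.0146 and 0.00656), where the brightest gave −0.16. The second probe of Psmc5 fell by 0.40 ± 0.08 in 5aza-dC (limma adjusted p = 0.00799), against −0.20 on the brightest. In recovery relative to 5aza-dC it rose by 0.32 ± 0.08 (limma adjusted p = 0.0249), against 0.14 on the brightest. The second probe of Psmb6 fell by 0.33 ± 0.08 in recovery relative to mock (limma adjusted p = 0.0195). The dimmest probe of Psmd1 gave −0.28 in 5aza-dC minus mock, against 0.08 on the brightest. In recovery minus 5aza-dC, where the brightest probe of Psmd10 fell, the others fell too, by 0.24 ± 0.08 and 0.39 ± 0.13 (limma, adjusted p = 0.0492 and 0.0479).

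**Figure D4:**
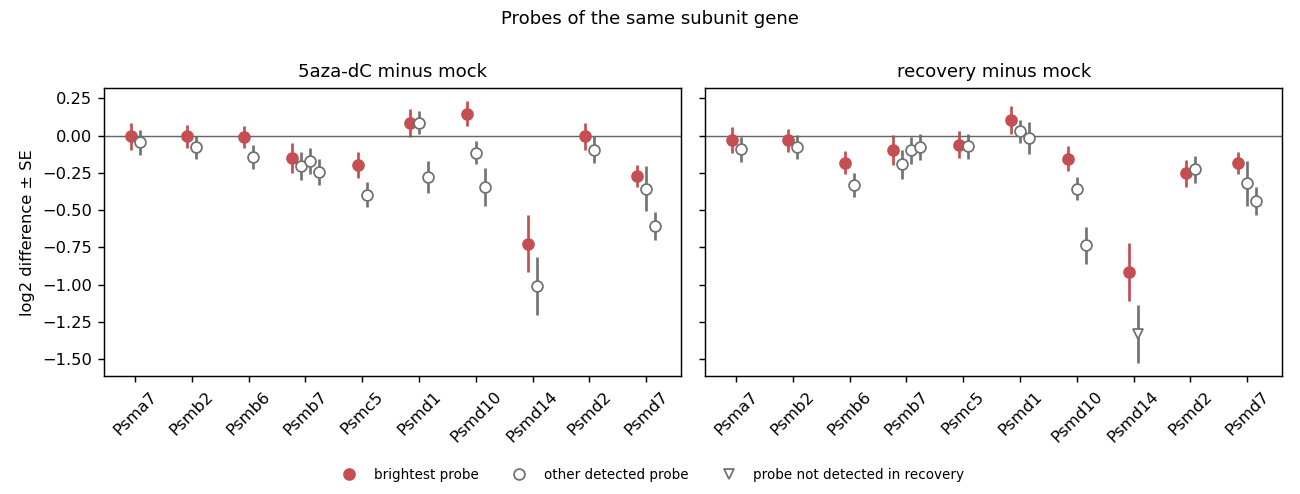
Log2 difference with SE (vertical axis) for each detected probe of the 10 members with 2 or more detected probes (horizontal axis), in 5aza-dC minus mock and recovery minus mock. Both Psmd14 probes and all 3 Psmd7 probes lie below 0 in both panels, the Psmd10 probes lie on both sides of 0 in the left panel, and a triangle marks a probe that was not detected in recovery.

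The constitutive active-site genes did not pass in 5aza-dC, whereas their 3 interferon-inducible counterparts rose. Psmb8, which replaces Psmb5, had levels of 8.11 and 8.00 in recovery, 11.43 and 11.33 in 5aza-dC, and 8.83 and 8.60 in mock. It was far above the other groups in 5aza-dC and lowest in recovery. Psmb5 gave −0.21 ± 0.12 in 5aza-dC minus mock, where Psmb8 rose by 2.67 ± 0.10 (limma, Benjamini-Hochberg adjusted p = 5.37e-06), and Psmb8 fell by 0.66 ± 0.10 in recovery relative to mock (adjusted p = 0.00356). Psmb6 gave −0.01 ± 0.07 in 5aza-dC minus mock, where Psmb9, which replaces it, rose by 2.31 ± 0.16 (limma adjusted p = 5.84e-05). Psmb9 was not well above background in recovery, at least 5.68-fold lower than in 5aza-dC. Psmb7 gave −0.15 ± 0.10 in 5aza-dC minus mock, where Psmb10, which replaces it, rose by 1.10 ± 0.10 (limma adjusted p = 0.000197). Of the activator genes Psme1 rose by 0.59 ± 0.07 (limma adjusted p = 0.00063) and Psme2, at 0.37 ± 0.14, did not pass (adjusted p = 0.0629). All 5 fell in recovery relative to 5aza-dC, the call of Psme2 being lost without any 1 array of those groups, and Psmb8 and Psme1 fell relative to mock. With every probe averaged, detected or not, Psmb8 gave −0.41 in recovery minus mock. The differences between the members of a pair were not tested, since they would set a probe against another.

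**Figure D5:**
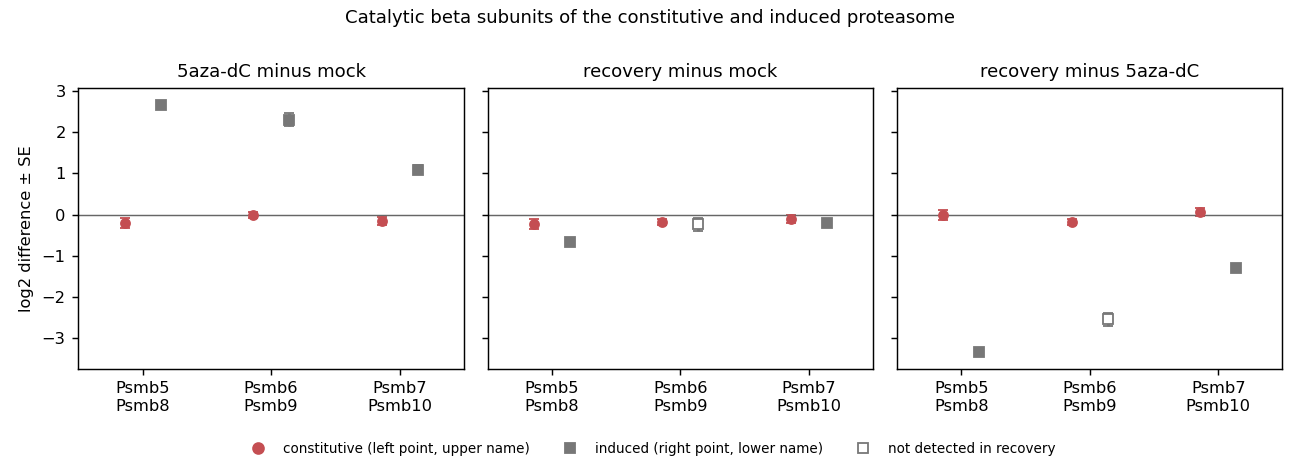
Log2 difference with SE (vertical axis) of the 3 constitutive active-site genes, each beside the induced gene that replaces it (horizontal axis), in 3 comparisons. In 5aza-dC minus mock the constitutive genes lie between −0.21 and −0.01 and the induced genes between 1.10 and 2.67, and open squares mark Psmb9, which was not detected in recovery.

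Genes whose products build or accompany the proteasome were taken as further lists. Of 4 detected assembly chaperones outside the family, 3 fell in 5aza-dC: Psmg3 by 0.35 ± 0.11 (limma, Benjamini-Hochberg adjusted p = 0.0318), Psmg1 by 0.29 ± 0.08 (adjusted p = 0.0189) and Pomp, the maturation factor of the core, by 0.23 ± 0.08 (adjusted p = 0.0394). All 3 calls were lost without either 5aza-dC array (adjusted p of 0.0756 to 0.152), so that the count became 0, and 27% of all detected genes were called lower. None of the 4 passed in recovery relative to mock, and Psmg2 and Psmg3 rose in recovery relative to 5aza-dC, calls that were both lost without either array of recovery or without array 2 of 5aza-dC. The list's median was −0.26 in 5aza-dC minus mock and −0.04 in recovery minus mock, against 0.01 and 0.03 over all genes.

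Of 8 detected other parts and associated proteins, 2 (25%) fell in 5aza-dC, against 27% of all detected genes. Psme3, which encodes the nuclear activator of the core, had levels of 9.72 and 9.68 in recovery, 9.20 and 9.17 in 5aza-dC, and 10.10 and 9.97 in mock. No group overlapped another, and it fell by 0.85 ± 0.08 in 5aza-dC (limma, Benjamini-Hochberg adjusted p = 0.000185) and by 0.33 ± 0.08 in recovery relative to mock (adjusted p = 0.0157). The second of these calls was lost without either recovery array. The ubiquitin ligase gene Ube3a fell by 0.50 ± 0.09 in 5aza-dC (limma adjusted p = 0.00282). With every probe of the gene averaged, detected or not, the value was −0.14 and did not pass (limma adjusted p = 0.0929). An undetected probe draws such an average toward no difference, so the average cannot show that detected probes disagree. Sem1, a small lid protein, fell by 0.25 ± 0.07 in recovery relative to mock (limma adjusted p = 0.0338), a call lost on the omission of any 1 array other than array 2 of mock (adjusted p of 0.0668 to 0.16). Usp14, a deubiquitinase of the base, was not well above background in 5aza-dC. The list's median was −0.22 in 5aza-dC minus mock and −0.02 in recovery minus mock.

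Among regulators of proteasome genes, Nfe2l1 had levels of 9.91 and 9.90 in recovery, 9.91 and 9.91 in 5aza-dC, and 9.79 and 9.90 in mock. The recovery and mock arrays overlapped and the 5aza-dC arrays lay above both by small margins, and the differences from mock, 0.05 ± 0.07 in recovery and 0.07 ± 0.07 in 5aza-dC, did not pass. Nfe2l2, which drives oxidative stress genes, fell by 0.47 ± 0.08 in recovery (limma, Benjamini-Hochberg adjusted p = 0.00598) and by 0.24 ± 0.08 in 5aza-dC (adjusted p = 0.0433). The second call was lost in 14 of 15 alternatives, among them the omission of any 1 array. With every probe of the gene averaged, detected or not, the values were −0.17 in recovery (limma adjusted p = 0.146) and −0.05 in 5aza-dC (adjusted p = 0.631). The small Maf gene Maff fell by 0.56 ± 0.17 in 5aza-dC (limma adjusted p = 0.0294) and was not well above background in recovery, at least 1.60-fold lower than in mock. The 5aza-dC call of Maff was lost in 7 of 14 alternatives, including the omission of either 5aza-dC array or of array 1 of mock (limma adjusted p of 0.0788, 0.123 and 0.118), and the recovery call in 4 of 14, including the omission of array 1 of recovery. Mafg did not pass. The 4 detected genes of this list had medians of −0.33 in recovery and −0.17 in 5aza-dC relative to mock.

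Upstream of the proteasome, Uba6, an enzyme that activates ubiquitin, had levels of 6.60 and 6.57 in recovery, 7.42 and 7.39 in 5aza-dC, and 6.39 and 6.60 in mock. It was highest in 5aza-dC and rose there by 0.91 ± 0.09 (limma, Benjamini-Hochberg adjusted p = 0.00025). With every probe of the gene averaged, detected or not, the rise was 0.45, and Uba6 was the 1 gene of its list analysed here. Of 7 detected shuttle and segregase genes, which carry or pull ubiquitinated proteins to the proteasome, 2 fell in 5aza-dC, against 27% of all detected genes, and none passed in recovery relative to mock. Rad23b, a shuttle receptor, fell by 0.69 ± 0.09 (limma adjusted p = 0.000877) and Ubqln4 by 0.30 ± 0.11 (adjusted p = 0.0477). The Ubqln4 call was lost in 7 of 15 alternatives, including the omission of either 5aza-dC array or of array 1 of mock (adjusted p of 0.13 to 0.173). Vcp, the segregase, gave 0.05 ± 0.07 in 5aza-dC. The list's median was −0.14 in 5aza-dC minus mock and 0.01 in recovery minus mock.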

How the data were processed

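Total RNA of NIH/3T3 cells was profiled on Illumina bead arrays, with 1 sample for each of 3 groups per the labels. RNA was prepared with TRIZOL and amplified with a TotalPrep kit, per the labels' protocols. Per the file headers, the first deposited table holds non-normalized signal intensity and a detection p-value for each of 45281 probes. The second deposited table holds intensity that, judging by its values, was background subtracted and scaled to a mean of 224.5. The software behind the tables is not stated in the labels or headers. Number of columns of other samples: 0.

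Detection p-values moved in steps of 0.5 of 936 negative controls, as a mean of 2 arrays would. The 2 arrays behind each column were solved from both tables. Recomputed detection p-values lay within 0.5 control of the deposited ones for 98.7%, 99.9% and 99.5% of the probes of recovery, 5aza-dC and mock, and the scaled mean of each recovered array, 224.3 to 224.8, matched the deposited one to within 0.3. The arrays were normalized with neqc (normexp from detection p-values, offset 16, quantile, log2) and fitted with limma 3.58.1 in R 4.3.3 (lmFit, eBayes, all 3 groups in 1 fit, 3 residual and 3.70 prior degrees of freedom, two-sided). Benjamini-Hochberg adjustment ran over 8982 genes within each comparison. The 2-fold rule used the deposited columns with detection in the brighter group.

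Gene symbols came from the platform annotation: 34885 probes had 1 gene, 18 several and 10378 none listed. The members and lists were chosen with earlier results of these data known, and no count over them is independent support. Genes named are the active-site subunits, Psmd14, Psmd4, Psmd1 and Psmd2, and the 3 highest and 3 lowest members per comparison. Psmb10, Psmc1, Psmd7, Psmd8, Psmd9 and the probes of Psmc5 and Psmb6 among others were named with their values known. Array recovery and the limma fit were tested on simulated data. With 50 genes changed at each size, 4% of those with a true log2 change of 0.3 were called, 44% at 0.6 and 88% at 1. Fewer genes changed there than pass here, so these shares do not carry over directly. A member that did not pass is not thereby shown to be unchanged. Alternatives covered background correction, offset, normalization, detection filter, probe choice, variance prior, the authors' scaled intensity and leaving out each array.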

Additional observations from a re-analysis of the deposited data

How the results depend on the processing

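No paired analysis was possible because the labels give 1 sample per group and the recovered arrays carry no replicate numbers shared between groups. No member that passed the test changed direction under the alternatives run. Calls were sensitive to leaving out an array and to scaling. Leaving out 1 array gave 0 to 2 members higher and 1 to 7 lower in 5aza-dC minus mock (median −0.042 to −0.0073), 0 to 1 higher and 1 to 3 lower in recovery minus mock (median −0.086 to −0.038), and 0 to 3 higher and 0 to 4 lower in recovery minus 5aza-dC; fewer arrays leave fewer degrees of freedom. Scaling each array to the median of all probes shifted all genes, with medians of −0.11, −0.25 and −0.15 in 5aza-dC minus mock, recovery minus mock and recovery minus 5aza-dC, and the members' medians became −0.21, −0.40 and −0.17; 0 members passed in the first and last, and 0 rose and 1 (Psmd14) fell in recovery minus mock. The count of all genes passing fell to 578 higher and 404 lower, 68 and 289, and 29 and 495. Scaling to the 75th percentile gave 0 higher and a median of −0.064 in 5aza-dC minus mock, 1 lower and −0.10 in recovery minus mock, and 1 lower in recovery minus 5aza-dC. A robust variance trend gave 3 higher in 5aza-dC minus mock, 3 higher and 7 lower in recovery minus mock, and 4 higher and 5 lower in recovery minus 5aza-dC. Without background correction the counts were 2 higher, 3 higher and 6 lower, and 4 higher and 5 lower, and an offset of 50 gave 3 higher and 6 lower in recovery minus mock and 4 higher and 5 lower in recovery minus 5aza-dC; both left 0 members past 2-fold in recovery minus mock. Averaging every probe of a gene, detected or not, gave a median of −0.076 in 5aza-dC minus mock, and 6 lower with a median of −0.090 in recovery minus mock. The authors' scaled values gave medians of −0.033 and −0.091 relative to mock for 5aza-dC and recovery. The causes were not tested. Precision is limited by having 2 arrays per group, and signal near background limits the 6 undetected members.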
